A study of Mus musculus with 6 samples.

Results

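Platelets stop bleeding with a small set of surface receptors and stored granule proteins, and megakaryocytes, the marrow cells that shed platelets, make nearly all of them. The glycoprotein Ib-IX complex catches von Willebrand factor on damaged vessel walls, the integrin alpha-IIb beta-3 then binds fibrinogen and joins platelets to each other, and granules release chemokines and further clotting proteins. Open chromatin was examined here around 9 of these genes, a set chosen by gene name with earlier results of these data known. They are Gp1ba, Gp1bb and Gp9 (subunits of the Ib-IX complex), Vwf (von Willebrand factor), Itga2b and Itgb3 (the integrin subunits), Pf4 and Ppbp (chemokines of the alpha granule) and Rab27b (a small GTPase of granule secretion). Peaks in or within 20 kb of the RefSeq span of each gene were taken, which gave 66 of the 75961 consensus regions formed by merging overlapping peaks of all samples, 62098 of which lay as near to any of 21887 protein-coding genes. Pf4 and Ppbp are neighbours and share all 5 of their regions, so the 9 genes stand for fewer separate loci than genes.

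The samples were 6 ATAC-seq libraries, an assay in which a transposase cuts accessible DNA, from bone marrow of C57BL/6 mice after depletion of lineage-positive cells. 3 libraries carried intact Utx (labelled UTX_WT) and 3 came from mice deficient for Utx (labelled UTX_KO). UTX, encoded by Kdm6a, is a histone demethylase that also acts without its catalytic activity. The labels give no age and no means of deletion, and do not say whether the replicates are separate animals, so all p-values measure the spread between these samples, which may be technical.

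Peak lists held 57405 to 57917 peaks in wild type and 44576 to 50249 in knockout, and depth is unknown because the lists carry coordinates alone. Kdm6a had 4 to 5 peaks within 20 kb in wild type and 5 to 6 in knockout, which says nothing of the genotype because the deleted part is not known. All 9 genes of a stem and progenitor list fixed for this work, such as Kit, Cd34 and Meis1, had peaks nearby, as did 8 of 8 housekeeping genes and 16985 of the 21887 protein-coding genes, so a nearby peak does not show which cell types were present. In bulk samples such as these, fewer cells of a type and less open chromatin per cell cannot be told apart.

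Fewer of the regions near these platelet genes had peaks in the knockout samples, with losses at Rab27b, Vwf, Gp9, Gp1ba, Itgb3 and the shared Pf4 and Ppbp locus and none at Itga2b or Gp1bb. A region is called lost here when it held a peak in each of the 3 wild-type samples and in none of the knockout samples, and gained in the reverse case. Of the 66 regions, 16 (24.2%) were lost and 2 (3.03%) were gained, where 10.7% of all regions near protein-coding genes were lost and 4.05% were gained. Of the 46 regions with a peak in every wild-type sample, 34.8% were lost, against 17.0% of such regions near all genes. Rab27b held 6 of the 16, and without its 11 regions 10 of 55 (18.2%) were lost. The number of the 66 regions with a peak was 52, 52 and 56 in wild-type samples 1, 2 and 3, and 31, 35 and 28 in the knockout samples. No knockout sample reached the lowest wild-type sample. More wild-type than knockout samples had a peak in 37 regions, the reverse held in 7, and numbers were equal in 22. Every knockout list was shorter, with 44576 to 50249 peaks against 57405 to 57917 in wild type. Regions near all genes leaned the same way, with 10.7% lost and 4.05% gained. A peak in all 6 samples was found in 33.3% of the 66 regions and in 42.9% of regions near all genes. How far the 37 and 7 depart from this background was not tested.

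**Figure D1:**
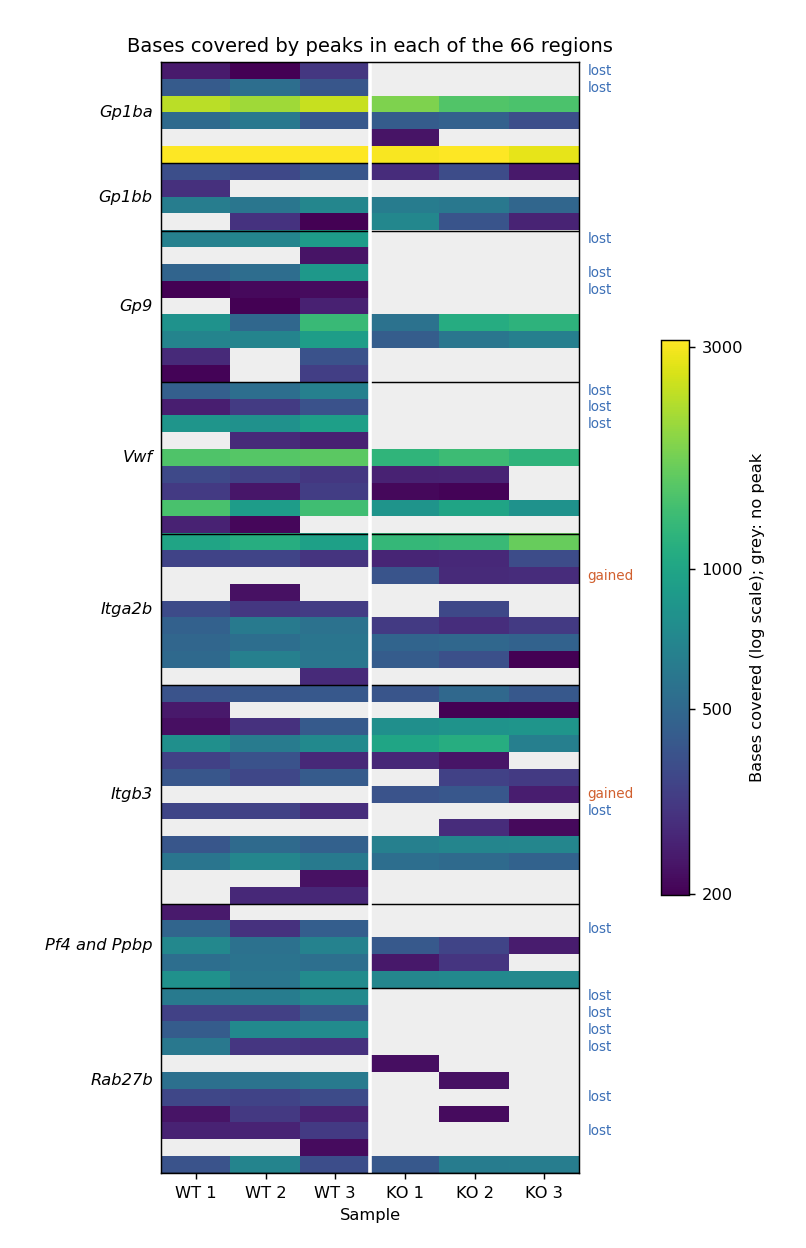
Each line is 1 of the 66 regions, grouped by gene and ordered by position, each column is a sample, and colour gives the bases covered by peaks on a log scale, with grey for no peak. The 16 lost regions are filled in the 3 wild-type columns alone, the 2 gained regions in the 3 knockout columns alone, and the Pf4 and Ppbp regions are drawn once.

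Promoters differed from gene to gene. RefSeq (GRCm38.p6) supplied a promoter window, 250 bases before to 50 bases after a start site, for 6 of the 9 genes. Those of Gp1ba, Gp9 and Pf4 were covered by a peak in all 3 wild-type samples and in no knockout sample. Among windows with a peak in all 3 wild-type samples genome-wide, 2.78% had no knockout peak. This share was not matched on peak width, and the regions over the 3 lost windows had mean wild-type widths of 465, 209 and 412 bp. Of regions near all genes with a peak in every wild-type sample, 34.9% under 300 bp and 20.9% from 300 to 500 bp were lost. The Itga2b window had a peak in all wild-type and in 2 knockout samples, and those of Gp1bb and Ppbp had none in any sample. The 3 lost windows and that of Itga2b are printed 5′ to 3′ on the strand of the gene, with capitals marking matches to GATA words (AGATAA or TGATAA or AGATAG or TGATAG) and ETS words (AGGAAG or CGGAAG) on either strand. They lie at chr11:70638872-70639171 (plus strand), chr6:87777820-87778119 (plus), chr5:90772185-90772484 (plus) and chr11:102469834-102470133 (minus), in the order printed.
Gp1ba: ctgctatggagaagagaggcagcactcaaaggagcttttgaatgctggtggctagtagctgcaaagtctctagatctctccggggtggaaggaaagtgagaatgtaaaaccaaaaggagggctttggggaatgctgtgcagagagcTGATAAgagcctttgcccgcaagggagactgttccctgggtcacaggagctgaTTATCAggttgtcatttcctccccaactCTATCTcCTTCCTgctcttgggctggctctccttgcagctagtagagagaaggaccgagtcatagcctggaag
Gp9: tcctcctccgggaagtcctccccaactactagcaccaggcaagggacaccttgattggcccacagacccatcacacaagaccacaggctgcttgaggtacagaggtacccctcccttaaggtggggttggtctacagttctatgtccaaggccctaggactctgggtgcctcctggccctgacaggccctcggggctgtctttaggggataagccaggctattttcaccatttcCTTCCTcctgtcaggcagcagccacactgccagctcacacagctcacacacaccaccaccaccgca
Pf4: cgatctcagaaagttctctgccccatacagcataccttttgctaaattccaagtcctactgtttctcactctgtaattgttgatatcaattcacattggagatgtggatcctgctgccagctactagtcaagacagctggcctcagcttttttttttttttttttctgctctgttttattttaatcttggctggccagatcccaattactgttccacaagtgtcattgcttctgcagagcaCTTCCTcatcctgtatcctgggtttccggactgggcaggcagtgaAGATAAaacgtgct
Itga2b: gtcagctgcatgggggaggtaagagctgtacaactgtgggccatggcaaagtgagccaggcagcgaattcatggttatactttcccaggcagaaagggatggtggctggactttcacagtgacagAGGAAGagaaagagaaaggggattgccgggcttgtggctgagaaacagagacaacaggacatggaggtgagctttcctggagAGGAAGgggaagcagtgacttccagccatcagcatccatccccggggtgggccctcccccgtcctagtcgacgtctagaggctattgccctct

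The Gp1ba window holds 3 GATA words, which begin 104, 51 and 23 bases before the start site, and 1 ETS word beginning 16 bases before it. Pf4 has 1 GATA word after the start site and 1 ETS word 9 bases before it. Gp9 has 1 ETS word 16 bases before its start and no GATA word, and Itga2b has 2 ETS words, 125 and 43 bases before its start, and no GATA word. These GATA and ETS words do not overlap each other within a window. Of 32817 promoter windows in the table, 29.8% hold a GATA word and 46.5% an ETS word. Among the 350 lost windows the shares were 55.1% and 50.3%, and among the 11792 windows with a peak in all 6 samples they were 16.6% and 55.9%. These shares were not matched on base composition, and a word match is not evidence that a factor binds there.

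**Figure D2:**
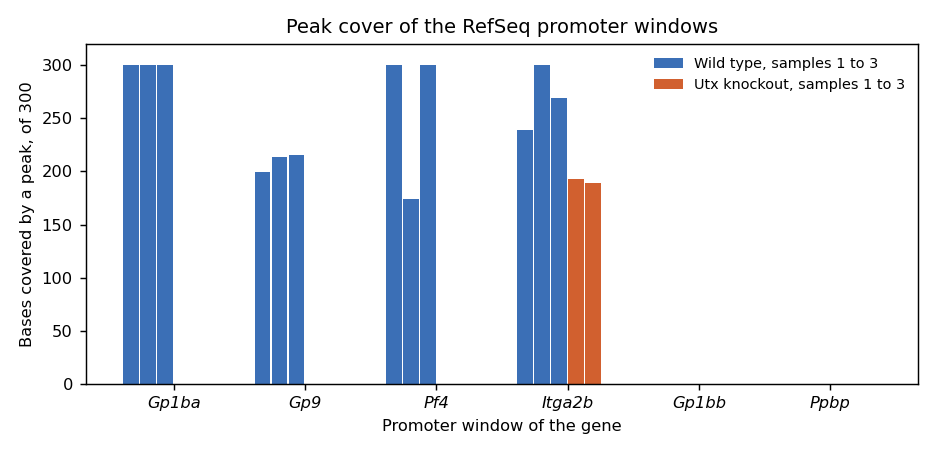
Bars give the number of bases, of 300, covered by a peak in the promoter window of each gene, for wild-type samples 1 to 3 and knockout samples 1 to 3. Gp1ba, Gp9 and Pf4 have bars in wild type alone, Itga2b has bars of 239 to 300 bases in wild type and of 193 and 189 bases in knockout samples 1 and 2, and Gp1bb and Ppbp have none.

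Of the receptor for von Willebrand factor, Gp1ba and Gp9 lost their promoter peaks, whereas Gp1bb had little open chromatin of its own to lose. Gp1ba encodes the subunit that binds von Willebrand factor (chromosome 11, 70639102 to 70643986). Its promoter region at 70638731 to 70639269 was 440, 539 and 415 bp wide in the wild-type samples, and the knockout lists held nothing there. A second lost region lay 16430 bp away at 70622363 to 70622672, outside any protein-coding gene, with 243, 201 and 310 bp in wild type. The remaining regions overlapped or flanked Slc25a11, Rnf167, Pfn1 and Eno3, and 3 of these had a peak in all 6 samples. Over the whole window Gp1ba had 5, 6 and 5 peaks in wild type and 5, 3 and 3 in knockout (exact permutation p = 0.300), so the groups overlapped.

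Gp9 encodes glycoprotein IX, which keeps the complex at the cell surface (chromosome 6, 87776131 to 87779786). It had 8, 6 and 9 peaks in wild-type samples 1, 2 and 3 and 2 peaks in each knockout sample, or 7.67 ± 1.53 (SD, n = 3) against 2. The groups did not overlap, and the two-sided exact permutation p was 0.10, the smallest that 3 samples against 3 allow. With all lists cut to the same number of peaks, the mean difference of -5.67 at Gp9 became -2.67. Of its 9 regions 3 were lost. They were the narrow promoter region at 87777879 to 87778108 (199, 214 and 215 bp), inside the annotated span, one at the lower end of the gene at 87775766 to 87776629 (483, 531 and 858 bp), and one 11914 bp below the gene at 87763312 to 87764217 (666, 698 and 906 bp). Another 4 regions had peaks in 1 or 2 wild-type samples and in no knockout sample. The 2 regions found in all 6 samples both overlapped Rab43, the neighbouring gene, so no knockout sample had a peak inside Gp9.

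Gp1bb, for the beta subunit that pairs with the Gp1ba product, behaved differently (chromosome 16, 18620319 to 18622403). Each of the 6 samples had 3 peaks within 20 kb. The only peak inside the gene, 291 bp wide, was in wild-type sample 1 and lay in a stretch shared with Septin5. Covered length in the window was 1312, 1242 and 1319 bp in wild type and 1623, 1381 and 993 bp in knockout, and the groups overlapped.

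Vwf, the ligand of the complex, is stored in granules of megakaryocytes and of endothelium (chromosome 6, 125552948 to 125686679). It had 8, 9 and 9 peaks in wild type and 4, 4 and 2 in knockout, or 8.67 ± 0.577 against 3.33 ± 1.15 (SD, n = 3 each; exact permutation p = 0.10). Every knockout sample was below every wild-type sample. A total of 3 regions were lost, 2 of them inside the gene near its lower end, at 125560968 to 125561395 and 125564715 to 125565657, and 1 at 125540989 to 125541650, which is 11298 bp below the gene. The region at 125564715 was the widest of the 16 lost regions, with 831, 802 and 943 bp in wild type. The region at 125572311 to 125573883 was found in every sample but was narrower in knockout, at 1203, 1308 and 1187 bp against 1457, 1502 and 1548 bp. Endothelial Vwf was not separable here. Of 7 endothelial and stromal genes (Cdh5, Tek, Emcn, Pecam1, Col1a1, Cxcl12 and Lepr) Emcn had no peak in any sample, and the list had 17 to 20 peaks in wild type and 10 to 13 in knockout. The part of such cells in the Vwf result was not tested.

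Rab27b had the largest drop in peak number of the 9 genes within 20 kb, a mean difference of -7.33, although within 50 kb the difference was -9 at Gp9 and -8.33 at Rab27b. Its product drives secretion of platelet granules (chromosome 18, 69979131 to 70141633). It had 9, 9 and 10 peaks in wild type and 2, 3 and 1 in knockout, or 9.33 ± 0.577 against 2 ± 1 (SD, n = 3 each; exact permutation p = 0.10). All 11 of its regions lay inside the gene, and 6 of them were lost. Widths in wild type ranged from 259 to 746 bp across these 6 regions. In knockout sample 3 the sole peak left was at the upper end of the gene, 70140897 to 70141642, where all 6 samples had a peak, with 402, 684 and 379 bp in wild type and 426, 634 and 638 bp in knockout. Knockout sample 2, which has the longest knockout list, had 2 more of the wild-type peaks, of 224 and 215 bp, and knockout sample 1 had 1 peak of 221 bp where no other sample had one. Losses were thus inside the gene body and not at this shared end.

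**Figure D3:**
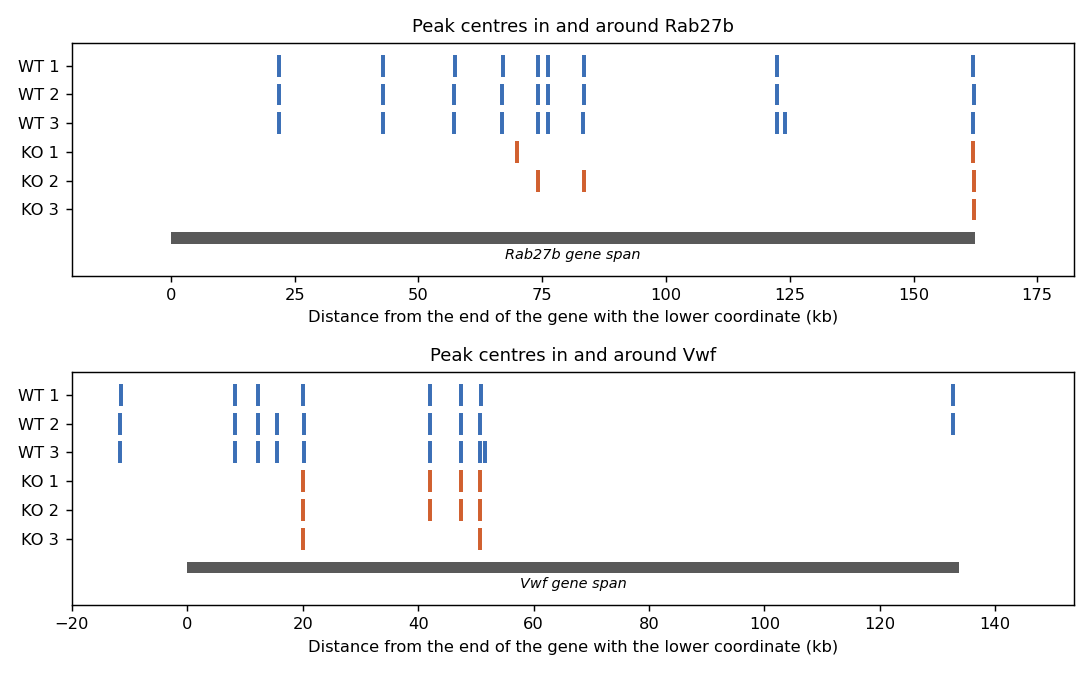
Ticks mark the centre of each peak in the 6 samples along Rab27b (upper panel) and Vwf (lower panel), with the distance in kb from the end of the gene that has the lower coordinate, and the grey bar is the gene span. Within Rab27b the knockout samples keep the peak at the upper end and at most 2 others, and at Vwf the 3 lost regions, all to the left of the 20 kb mark, have ticks in wild type alone.

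The chemokine genes Pf4 (platelet factor 4; chromosome 5, 90772435 to 90773383) and Ppbp (pro-platelet basic protein; 90768518 to 90770063) had 5, 4 and 4 peaks in wild type and 3, 3 and 2 in knockout (exact permutation p = 0.10). One of their 5 shared regions was lost, the Pf4 promoter at 90772109 to 90772606, with 486, 296 and 453 bp in wild type. The next region, at 90775380 to 90776121, was kept in every sample at reduced width, with 429, 348 and 246 bp in knockout against 716, 554 and 670 bp. At 90785592 to 90786166, over the neighbouring chemokine gene Cxcl3, widths were 237 and 303 bp in knockout samples 1 and 2 with no peak in sample 3, against 535, 565 and 542 bp. The farthest region, at 90789286 to 90790101, did not separate the groups, with 799, 587 and 745 bp in wild type and 699, 737 and 722 bp in knockout. No sample had a peak inside Ppbp.

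The integrin genes held both of the gained regions. Itga2b (integrin alpha-IIb, CD41; chromosome 11, 102453297 to 102469883) lost no region and had 5, 6 and 6 peaks in each genotype. Its 3 regions inside the gene had a peak in all 6 samples. Of these, the one at 102455773 to 102456402 was narrower in knockout (319, 285 and 317 bp against 466, 610 and 562 bp), as was the one over the start site at 102469816 to 102470476 (444, 390 and 199 bp against 511, 661 and 584 bp). The third, at 102466986 to 102467575, overlapped between the groups, with 472 to 496 bp against 493 to 580 bp. The gained region near Itga2b, at 102437538 to 102437945, lay inside Fam171a2, and the farthest region, over Grn at 102431835 to 102433524, was wider in knockout (1237, 1277 and 1634 bp against 991, 1100 and 946 bp). Only the peak of knockout sample 3 reached within 20 kb of Itga2b there. The Grn region thus entered the set through a knockout peak, and its greater width in knockout is not independent of that.

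Itgb3 (integrin beta-3, CD61; chromosome 11, 104608000 to 104670476) had 9, 9 and 10 peaks in wild type and 7, 10 and 9 in knockout. The region at its lower end, 104607488 to 104608376, was wider in knockout, at 781, 814 and 833 bp against 222, 294 and 432 bp, a mean ratio of 2.56. A region inside the gene at 104636834 to 104637553 was also wider (658, 694 and 706 bp against 417, 516 and 466 bp), and one at 104619166 to 104619588 was gained, with 401, 421 and 248 bp. In the other direction, the region at 104622305 to 104622770 was lost (354, 342 and 286 bp in wild type) and that at 104647154 to 104647881 was narrower (538, 513 and 473 bp against 579, 699 and 614 bp). Itgb3 thus had regions that moved either way.

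**Figure D4:**
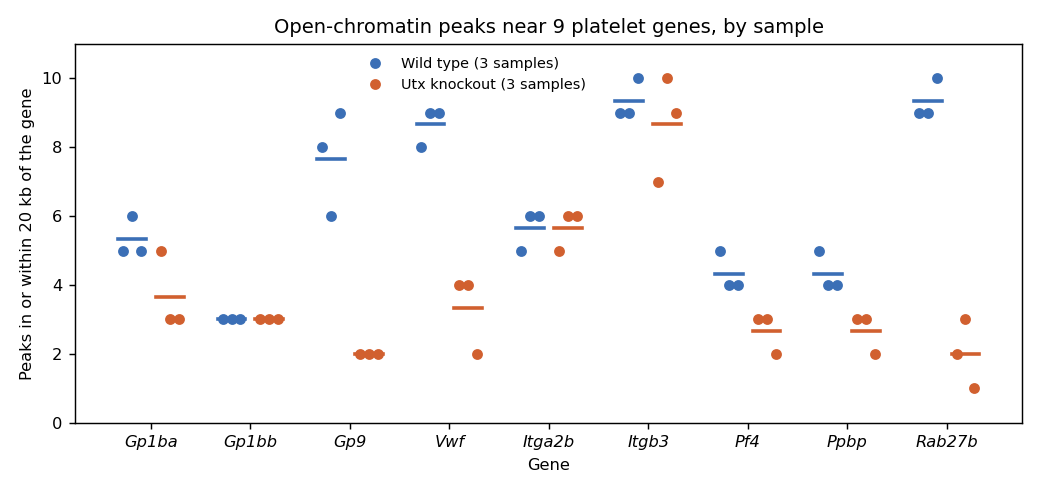
Points are single samples (3 wild type, 3 knockout), lines are means, and the vertical axis is the number of peaks in or within 20 kb of each gene. Knockout points lie below all wild-type points for Gp9, Vwf, Pf4, Ppbp and Rab27b and overlap them for Gp1ba, Gp1bb, Itga2b and Itgb3.

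Peak number separated the groups, with all knockout samples lower, at 5 of the 9 genes, where 27.6% of 16985 genes with a peak nearby did so, and at 0 genes in the other direction, where 4.24% did. Pf4 and Ppbp count the same peaks. Among the 22 regions that had a peak in all 6 samples, 7 were narrower and 3 wider in knockout with no overlap of the groups, against 27.7% and 11.9% of such regions near all genes. Their median ratio of knockout to wild-type width was 0.897, ranging from 0.527 to 2.56, and it was 0.93 for regions near all genes. The width of shared regions near the platelet genes was thus close to the background. The region over Grn, among those wider in knockout, entered the set only through the peak of knockout sample 3.

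A model over all genes gave each member a test. The bases covered by peaks within 20 kb of a gene were scaled to a common covered length per sample, which takes account of the shorter knockout lists, and compared as log2(bases + 500) with limma and Benjamini-Hochberg adjustment over 16985 genes. A fold change on this scale understates the change of sparsely covered genes. Covered length was lower in knockout near 5 of the 9 genes and higher near 1, where 21.1% of all genes were called lower and 15.6% higher. The median log2 difference was -0.54 over the members and -0.02 over all genes. Pf4 and Ppbp share their regions, so both the 5 genes and the median count 1 locus as 2 genes, and the median is the value of Ppbp.

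Rab27b fell the most, from 3795, 4185 and 4337 bp to 647, 1073 and 638 bp before scaling, a log2 difference of -1.68 ± 0.11 (SE; limma, adjusted p = 3.37e-05). Vwf went from 5343, 5132 and 5778 bp to 2494, 2761 and 1996 bp, with a log2 difference of -0.81 ± 0.09 (adjusted p = 0.000269). For both genes all knockout samples were lower. Gp9 had 3303, 2829 and 5249 bp against 1006, 1674 and 1830 bp, with a difference of -0.89 ± 0.21 (adjusted p = 0.0111). Pf4 differed by -0.55 ± 0.13 (adjusted p = 0.0102), with 2779, 2002 and 2410 bp against 1365, 1388 and 968 bp, and Ppbp, over the same regions, by -0.54 ± 0.13. The calls for Gp9, Pf4 and Ppbp were the less firm ones, and only Vwf and Rab27b were called lower when genes without any peak entered the fit. Gp9 had -0.58 with the widest 50% of peaks (adjusted p = 0.0991), and Pf4 had -0.31 when peaks were counted in place of bases (adjusted p = 0.138).

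Itgb3 was the gene called higher, at 0.36 ± 0.07 (SE; limma, adjusted p = 0.00493), with 4057, 5097 and 4071 bp in knockout against 3751, 3917 and 4161 bp before scaling, where the groups overlapped. This call rests on the scaling. Without it the median of all genes moved to -0.21, Itgb3 was at 0.14 (adjusted p = 0.263), and 84.1% of all calls were lower in place of 57.4%. Itga2b (-0.09 ± 0.08, adjusted p = 0.456), Gp1ba (-0.14 ± 0.08, adjusted p = 0.225) and Gp1bb (0.20 ± 0.13, adjusted p = 0.27) did not pass. Without scaling Itga2b was at -0.29 (adjusted p = 0.0303) and Gp1ba at -0.36 (adjusted p = 0.00526), so that 7 of the 9 genes were called lower. In that fit 6870 of all 16985 genes were called lower, against 3578 with scaling.

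Distance mattered for Gp1ba, whose window holds wide peaks of its neighbours. Within 1 kb of the gene, a distance chosen after seeing the data, Gp1ba was at -0.89 ± 0.10 (limma, adjusted p = 0.000776), and Itga2b stayed short of the threshold at -0.23 ± 0.09 (adjusted p = 0.107). No knockout sample had a peak within 1 kb of Gp1ba, Gp1bb, Gp9 or Pf4, so the fitted values of these genes at that distance depend on the added 500 bases. Itgb3 was at 0.34 ± 0.08 (adjusted p = 0.0168) and Ppbp had no peak in any sample.

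**Figure D5:**
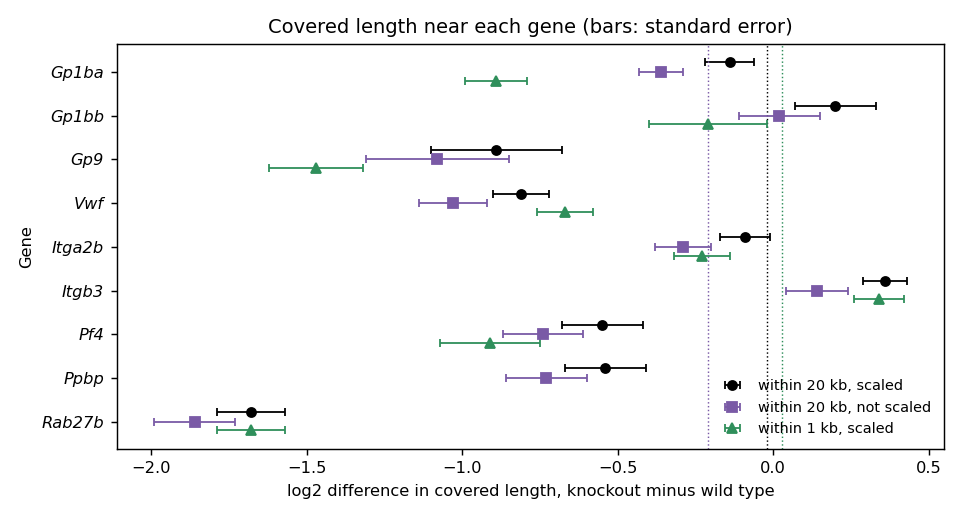
Points give the fitted log2 difference in covered length, knockout minus wild type, with standard errors, for peaks within 20 kb with and without scaling and within 1 kb with scaling, and dotted lines give the median of all genes for each. Rab27b lies farthest to the left in all 3, Itgb3 lies to the right of 0 in all 3, and Gp1ba moves from -0.14 to -0.89 when the window shrinks to 1 kb.

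Per kb of window, mean cover in wild type was highest at Gp1ba (148 ± 2.06 bp per kb, SD, n = 3), then Gp9 (86.9 ± 29.4), Pf4 (58.5 ± 9.49), Ppbp (57.2 ± 9.0), Itga2b (44.3 ± 4.86), Itgb3 (38.5 ± 2.01), Vwf (31.2 ± 1.90), Gp1bb (30.7 ± 1.01) and Rab27b (20.3 ± 1.38). Neighbours in this order whose ranges overlapped were Gp9, Pf4 and Ppbp, then Itga2b and Itgb3, then Vwf and Gp1bb. In knockout the order was Gp1ba (113 ± 10.1), Itgb3 (43.0 ± 5.82), Itga2b (34.6 ± 1.93), Gp9 (34.4, from 23.0 to 41.9), Gp1bb (31.7 ± 7.55), Pf4 (30.3 ± 5.77), Ppbp (29.9 ± 5.68), Vwf (13.9 ± 2.23) and Rab27b (3.88 ± 1.23). The knockout ranges of Itgb3 and Itga2b each overlapped that of Gp9. Those of Itga2b, Gp9, Gp1bb, Pf4 and Ppbp all overlapped each other, so the order from Itga2b to Ppbp is not fixed by the spread. Itgb3, from 39.6 bp per kb up, lay above the ranges of Itga2b, Gp1bb, Pf4 and Ppbp. Rab27b was last in both genotypes, with no overlap with the next gene.

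Narrower regions were lost more often near all genes, so the share lost was also read by width. For regions with a mean wild-type width under 300 bp, 3 of 5 near the members and 34.9% near all genes were lost. From 300 to 500 bp these were 7 of 17 and 20.9%, from 500 to 800 bp 5 of 17 and 14.8%, and from 800 bp on 1 of 7 and 4.11%. The members' share was above the background in each class, on small numbers. Of 8 member regions present in every wild-type sample but in 1 or 2 knockout samples only, all 8 had a peak in knockout sample 2, 4 in sample 1 and 1 in sample 3. The order is that of the lengths of the 3 knockout lists (50249, 45260 and 44576 peaks), and the part of depth in these differences was not tested.

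Among 38 other genes of megakaryocytes and platelets the picture was mixed. Of the 37 with a peak nearby, 14 were lower and 5 higher in covered length by the same limma test (all genes: 21.1% and 15.6%), with a median log2 difference of -0.06, and Gp6, the collagen receptor, had no peak in any sample. Of the 389 regions near the list 13.4% were lost and 2.06% gained, close to the 10.7% and 4.05% near all genes. The transcription factor genes with the most such regions were lower, with 4 of 6 regions lost at Gata1 (log2 difference -1.60, adjusted p = 1.67e-05), 13 of 33 at Zfpm1 (-1.30, adjusted p = 4.48e-05) and 4 of 14 at Gfi1b (-0.82, adjusted p = 9.69e-05), where 1 region was gained. Among granule and cytoskeleton genes, Stx11, a syntaxin of platelet secretion, lost 3 of 13 regions (-0.38, adjusted p = 0.0043). Nbeal2, needed to form alpha granules, lost 3 of 14 (-0.14, adjusted p = 0.216), and Tubb1, the platelet beta-tubulin, lost 2 and gained 1 of 10 (0.15, adjusted p = 0.128). All of these genes were named for having the most lost and gained regions. Covered length is taken from the same peaks, so their limma values are not separate evidence.

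Other genes of the lineage lost nothing, and those given here were named because none of their regions was lost. Rab27a, the close relative of Rab27b, lost 0 of 18 regions, 8 of which had a peak in all 6 samples, and its log2 difference was -0.00 ± 0.09 (limma, adjusted p = 0.994). The difference between Rab27a and Rab27b was not tested. Stxbp2, a partner of syntaxins, had a peak in all 6 samples in each of its 6 regions (0.06, adjusted p = 0.625). The ADP receptor gene P2ry12 was higher (0.52, adjusted p = 0.00182) and gained 1 of 16 regions, F5, for coagulation factor V, was higher (0.96, adjusted p = 0.000388) and gained 2 of 9, and P2rx1, an ATP receptor gene, was at 0.13 (adjusted p = 0.237). Tln1, for the integrin activator talin, was lower (-0.49, adjusted p = 0.00678) although none of its 11 regions was lost.

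Marker genes of other lineages were read against the same shares of all genes, 21.1% lower and 15.6% higher. Peak numbers of a list are sums over its genes, so a peak near several genes of a list counts for each. Genes with shared regions, such as Hbb-bt and Hbb-bs, Vpreb1 and Igll1, or Cd3d and Cd3g, are thus not separate loci. All 11 red cell genes were lower by limma, with a median log2 difference of -1.10 and 63 to 69 peaks in wild type against 23 to 24 in knockout. B cell genes were higher at 9 of 12, with 57 to 63 peaks against 84 to 104. Of 9 stem cell genes 4 were lower (64 to 68 peaks against 42 to 49), as were 3 of 6 mast cell and basophil genes (23 to 28 against 12 to 17) and 4 of 11 neutrophil and monocyte genes (69 to 78 against 58 to 71), where 1 was higher and the median was -0.04. The housekeeping genes, with 1 of 8 lower (42 to 45 against 36 to 40), and the T and NK cell genes, with 2 of 10 higher (33 to 38 against 36 to 40), were near the shares of all genes. The part of cell composition in the values of the platelet genes was not tested.

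Some lost and gained regions lie near other genes too. The Gp1ba regions were also within 20 kb of Chrne, Mink1, Eno3, Pfn1, Rnf167, Slc25a11 and 4930544D05Rik, the Gp9 regions of Efcc1 and Rab43, the Pf4 region of Cxcl3 and Cxcl5, and the region gained near Itga2b of Grn and Fam171a2. All 9 lost regions of Rab27b and Vwf were near no other protein-coding gene. At the limit of the window, the last regions inside were 19813 bp from Gp9 (2 wild-type and 0 knockout samples) and 19773 bp from Itga2b (all 6 samples). The latter was inside only by the peak of knockout sample 3. The first regions outside were 21871 bp from Itga2b (all 6 samples) and 23353 bp from Gp1ba (1 wild-type and 0 knockout samples).

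Across the 6 samples, 5 genes had covered lengths that followed the mean pattern of the members most closely, leaving out genes that share a region with them. They were Il1rl2 (Pearson r = 0.9964), Sf1 (0.9960), Hspb1 (0.9954), Gm31513 (0.9944) and Tmem150b (0.9938). These are descriptions over 6 libraries whose genotype and list length move together, and 17 of 16955 genes compared had r above 0.99.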

How the data were processed

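ATAC-seq peaks were called with MACS2 on mm10, per the submitters' processing notes. Versions, aligner, threshold and pooling were not given in the sources used here. The deposited lists, 1 per sample, hold peak coordinates only (no score or fold), so depth is unknown, no count model was possible and precision rests on 3 samples per genotype.

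Peaks of all samples were merged where they overlapped by at least 1 bp. Genes came from a RefSeq table of mm10 that holds spans, not exons, so exonic or intronic position is not given. Covered bases within 20 kb, scaled to the mean covered length of the samples, were tested as log2(bases + 500) with limma 3.58.1 (R 4.3.3, trended variance), adjusted p under 0.05 over all genes with a peak. Scripts were tested on simulated data. Promoter sequences are from RefSeq GRCm38.p6 and matched 6 of the 9 genes by symbol.

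The members, the marker lists and the tests were chosen with earlier results of these data known. Named besides the members were genes sharing their lost or gained regions, the 4 megakaryocyte genes with most lost and gained regions (ties included), the 4 with most regions in all samples and none lost (ties included), and the 5 genes most like the members. Alternatives varied distance, peak width, list length, scaling, pseudocount, filter, measure, replicates and overlap; distances of 1 kb and the omission of Rab27b were chosen after seeing the data.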

Additional observations from a re-analysis of the deposited data

How the results depend on the processing

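The count of 16 lost regions near the members, of 66, became 10 of 34 with the widest 50% of peaks, and these need not be among the 16. It was 10 of 55 without Rab27b, 13 of 55 with lists cut to equal length, and 16 to 19 when each sample was left out in turn. The share lost near all genes in these settings is not given here. The count of 2 gained regions became 1 within 5 kb and 0 with the widest 50% of peaks, and 2 to 3 with a sample left out. Leaving out a sample loosens the rule for a lost or gained region. Both counts could therefore hardly fall that way, and their ranges do not measure stability. The count of 5 members lower in covered length by limma was 2 when genes without any peak entered the fit and 3 by number of peaks (5 to 6 with a sample left out), and the 1 member higher was 0 without scaling and 0 by number of peaks. The megakaryocyte list, with 14 genes lower, had 8 within 5 kb, 8 by number of peaks and 9 within 1 kb (12 to 14 with a sample left out). The difference in peak number near Itgb3, -0.667, became 0.667 with lists cut to equal length, and ran from -1.33 to 0.167 with a sample left out, positive without knockout replicate 1. Fitted differences changed sign for Itga2b by number of peaks (0.26, adjusted p = 0.105) and for Gp1bb within 5 kb (-0.08) and 1 kb (-0.21), none past the threshold. Gp1ba passed without knockout replicate 1 (-0.22, adjusted p = 0.0259) and within 5 kb (-0.46, adjusted p = 0.00751), and Itga2b with the widest 50% of peaks (-0.69, adjusted p = 0.0237). With genes lacking peaks in the fit, adjusted p was 0.0727 for Gp9, 0.054 for Pf4 and 0.0546 for Ppbp. Over all 16985 genes tested, 3578 lower and 2658 higher calls became 6870 and 1301 without scaling and 1784 and 1293 by number of peaks. They were 2192 and 2086 of 15016 genes within 1 kb, and 2402 and 1750 of 15683 with the widest 50% of peaks. With genes lacking peaks in the fit they were 2742 and 2155 of 21887, and within 5 kb 2651 and 2240 of 15778. Counts of members and of list genes above are to be read beside these. The cause of these changes was not tested. Samples with the same replicate number did not deviate together (r = -0.043, 0.024 and 0.005), and a fit with the replicate number as a block called 5 members lower and 1 higher, 14 genes of the megakaryocyte list lower, and 3456 lower and 2493 higher over all genes. Lists without heights cannot separate a lost peak from one just under the calling threshold.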
